A study of Mus musculus with 8 samples.

Results

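The clustered protocadherin locus of the mouse is described here as 1 Mb of chromosome 18, chr18:37050001-38050000 in mm9, in libraries of H3K9me3, the trimethylation of lysine 9 of histone H3. The region was cut into 200 windows of 5 kb, of 527798 such windows on chromosomes 1 to 19 and X, and 1 Mb on each side served as the local background. All windows between these limits were taken, whatever their values. H3K9me3 ChIP-seq was done in JM8 ES cells of the C57BL/6N strain, grown without feeder cells, which carry a conditional and a second targeted allele of *Setdb1*. The genotype was *tm1c/tm2* before treatment (*T* = 0), and a CreERT2 recombinase made from *Rosa26* and switched on by 48 h of 0.8 µM 4′OHT converts the conditional allele to the null *tm1d* allele (the sample labels write *tm1a* and *tm1c* for these alleles). Cells were collected at *T* = 2d, when treatment ended, and at *T* = 4d and *T* = 6d. The Upstate-type antibody was used at all 4 time points, and lots 58206 and 638466 of an Abcam antibody at *T* = 0 and *T* = 6d. Each of the 8 libraries is the single one of its antibody and day. A test between 2 of them therefore compares libraries and not conditions, and whether they came from separate cultures is not given in the sources used here. Control cells that keep *Setdb1* were not analysed here, so time in culture and 4′OHT cannot be told apart from loss of *Setdb1*.

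Clustered protocadherins are adhesion proteins of the cadherin superfamily, and neurons use them to tell their own branches from those of other cells. In the *Pcdha* and *Pcdhg* clusters, many variable first exons, each with its own promoter, are spliced to a set of shared constant exons, whereas *Pcdhb* genes are single-exon genes. Each neuron transcribes only some of these promoters. *Setdb1* encodes a histone methyltransferase that places H3K9me3 on silenced genes and endogenous retroviruses. The RefSeq annotation of GRCm38 lists 14 *Pcdha*, 22 *Pcdhb* and 22 *Pcdhg* genes in this order on the chromosome, from *Pcdha1* to *Pcdhgc5*. That build is not the build of the files, so only names and order were taken from it, and windows are given by mm9 position and not by gene or exon.

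Each Upstate-type library held 6887819 tags, each of lot 58206 8503927 and each of lot 638466 12194174, since the authors brought the libraries of an antibody to the same number. A 5-kb window of the genome held a median of 8 to 9, 15 to 16 and 24 to 25 tags, respectively, and tags were counted at the midpoint of their 300-bp interval. Of the 200 windows of the locus, 183 averaged at least 0.5 times the median window over the libraries at *T* = 0 and *T* = 6d and were tested. The other 17 held between 1 and 48 tags over those 6 libraries and were 8.5% of the locus, against 9.94% of all windows with a tag. Intervals on counts are 95% Poisson or binomial intervals and cover counting error only.

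Before treatment the locus was close to an average stretch of the genome in H3K9me3 with the Upstate-type antibody and lot 638466, and above most of it with lot 58206. At *T* = 0 the Upstate-type library held 2764 tags in the locus, 1.12 times the median of 2388 tiles of 1 Mb and at percentile 57.7 among them. Lot 58206 gave 4425 tags, 1.26 times the median tile, at percentile 89.0. Lot 638466 gave 5134 tags, 1.01 times the median tile, at percentile 50.9. The place of the locus among tiles thus differed between antibodies at the same time point. Compared with its flanks, the locus held 0.638 (Upstate-type), 0.952 (lot 58206) and 0.770 (lot 638466) times as many tags per Mb, so that its flanks were richer with each of the 3 antibodies.

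**Figure D1:**
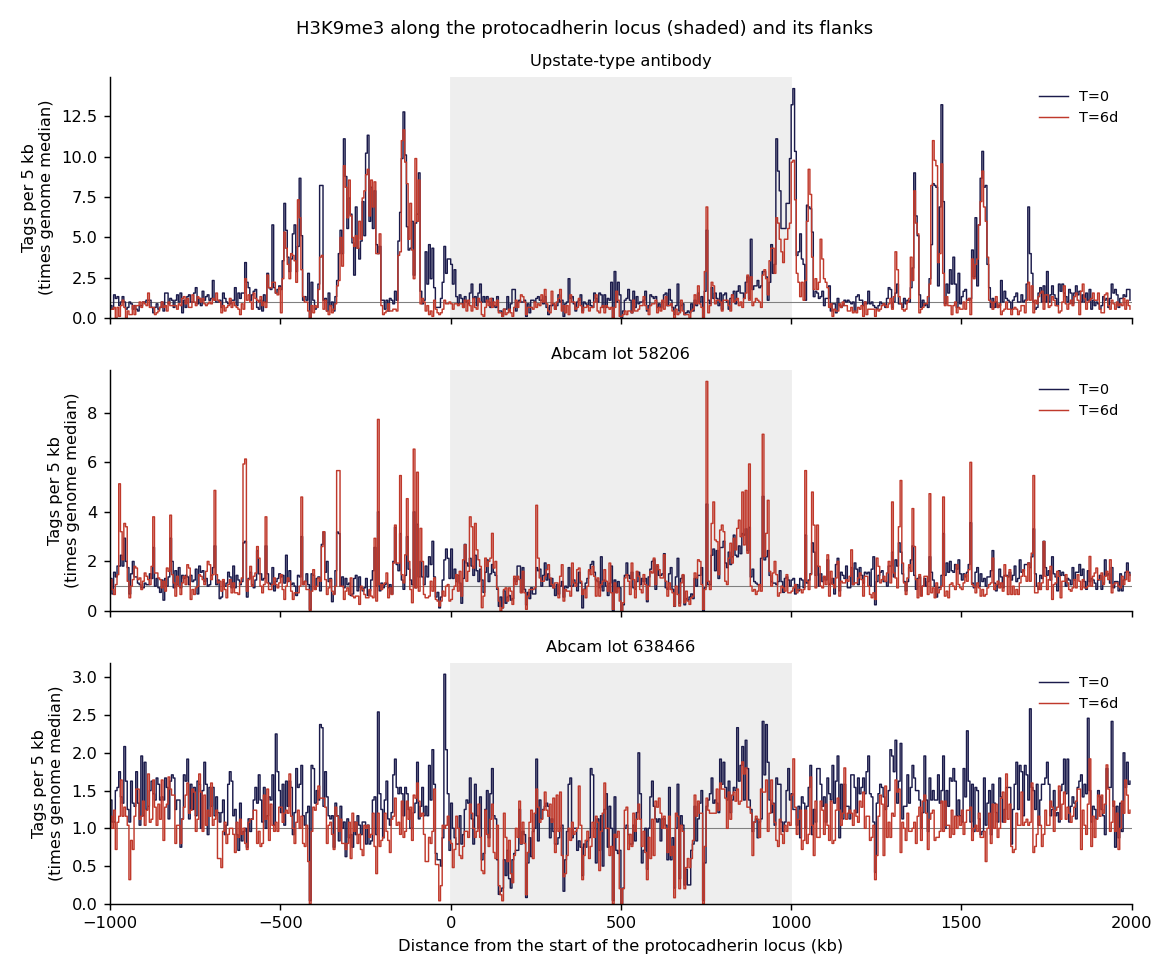
Tags per 5-kb window at T=0 and T=6d, as multiples of the genome median of the library (y axis), against the distance from the start of the locus in kb (x axis), with 1 panel per antibody and the locus shaded. The last 50 kb of the locus stand out with the Upstate-type antibody (650 tags at T=0), and the Abcam lots are highest before that end.

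The mark was unevenly placed along the locus, and the place of its maximum depended on the antibody. In 10 segments of 100 kb, the Upstate-type library at *T* = 0 held 272, 160, 164, 180, 225, 185, 163, 228, 310 and 877 tags from the first to the last, against a median of 195 in all segments of the genome. The last segment alone held 31.7% of the tags of the locus. With lot 58206 the segments held 503, 328, 376, 316, 395, 398, 372, 501, 737 and 499 tags (genome median 337), and with lot 638466 they held 519, 363, 490, 420, 469, 464, 416, 551, 745 and 697 (genome median 483). Both Abcam lots were thus highest in the ninth segment, 37850001 to 37950000, and the last segment held 11.3% and 13.6% of their tags. The second segment was lowest with the Upstate-type antibody and lot 638466, and the fourth with lot 58206.

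Across the 183 tested windows, the Abcam lots at *T* = 0 resembled each other (Pearson's r = 0.682, Spearman's rho = 0.666) more than either resembled the Upstate-type library (r = 0.189 for lot 58206 and 0.325 for lot 638466). Between *T* = 0 and *T* = 6d of the same antibody r was 0.691 (Upstate-type), 0.715 (lot 58206) and 0.529 (lot 638466). In the 163 tested windows of the first 900 kb these values were 0.340, 0.711 and 0.535, so the likeness of the Upstate-type libraries rested largely on the last segment. These correlations are descriptions, since neighbouring windows share fragments, mappability and base composition. The Upstate-type libraries also held the fewest tags per window, and counting error lowers their correlations the most.

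The richest windows of the locus fell into a sharp position at about 750 kb from its start and a broad stretch at its end. Whether that stretch lies within the gene clusters was not determined. The window 37800001 to 37805000 had the highest level over the antibodies, with 49, 83, 78 and 62 tags at *T* = 0, 2d, 4d and 6d with the Upstate-type antibody, 69 and 139 at *T* = 0 and *T* = 6d with lot 58206, and 31 and 35 with lot 638466. At 2 kb the antibodies separated within it. The first 2 kb, 37800001 to 37802000, held 23, 48, 49 and 40 Upstate-type tags but only 6 and 9 tags of lot 58206 and 4 and 15 of lot 638466. The next 2 kb, 37802001 to 37804000, held 24, 32, 29 and 22 Upstate-type tags, 45 and 97 of lot 58206, and 20 and 11 of lot 638466. In the latter, the *T* = 6d count was above *T* = 0 with lot 58206 and below it with the other antibodies. In the limma fit over the 3 antibodies the 5-kb window had a log2 change of 0.48 at *T* = 6d (adjusted *P* = 0.489).

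Of the other 9 windows with the highest level, 8 lay between 38005001 and 38050000 and were high with the Upstate-type antibody. The window 38005001 to 38010000 held 100, 105, 94 and 56 Upstate-type tags, 17 and 22 tags of lot 58206, and 40 and 21 of lot 638466. The window 38045001 to 38050000, at the right edge of the locus, held 89, 111, 90 and 53, then 16 and 11, and 33 and 26. In both, the Upstate-type libraries were far above the genome median of 8 to 9 tags at every time point, at *T* = 6d still by 6.22 and 5.89 times. Lot 58206 stayed near its median of 15 to 16. The other 6 windows at this end held 50 to 82 Upstate-type tags at *T* = 0, 60 to 109 at *T* = 2d, 67 to 99 at *T* = 4d and 37 to 53 at *T* = 6d, and each was lowest at *T* = 6d. The remaining window, 37965001 to 37970000, held 26, 21, 21 and 24 Upstate-type tags, 74 and 107 tags of lot 58206, and 58 and 37 of lot 638466. At *T* = 0 these were 2.89, 4.63 and 2.42 times the genome median of the library, so it was above the median with each antibody. Most of its Abcam tags lay in 37966001 to 37968000, where the Upstate-type antibody gave 6, 7, 4 and 6 tags, lot 58206 gave 49 and 83, and lot 638466 gave 35 and 16. None of the 10 windows passed the limma threshold, with log2 changes from -0.74 to 0.48.

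The H3K9me3 of the whole locus was lower at *T* = 6d with the Upstate-type antibody, but not by a similar amount with the Abcam lots. The Upstate-type libraries held 2764, 2807, 2649 and 2013 tags in the locus at *T* = 0, 2d, 4d and 6d. The ratio to *T* = 0 was 1.02 (0.963 to 1.07, two-sided Fisher's exact test *P* = 0.574) at *T* = 2d and 0.958 (0.908 to 1.01, *P* = 0.121) at *T* = 4d. At *T* = 6d it was 0.728 (0.687 to 0.772, Fisher's exact test *P* = 1.51e-27), and 3.27% of the 1-Mb tiles of the genome had a lower ratio. In the total of the locus, the last library thus stood apart from the 3 before it. It held 0.760 times the tags of the *T* = 4d library (*P* = 1.21e-20 by the same exact test).

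With lot 58206 the locus held 4425 tags at *T* = 0 and 4491 at *T* = 6d, a ratio of 1.01 (0.973 to 1.06, Fisher's exact test *P* = 0.491). With lot 638466 it held 5134 and 4888 tags, a ratio of 0.952 (0.915 to 0.990, Fisher's exact test *P* = 0.0144). The odds ratios of the 3 antibodies differed (chi-square test of equal odds, Q = 87.8, 2 degrees of freedom, *P* = 8.48e-20).

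The flanks were also lower at *T* = 6d, with ratios to *T* = 0 of 0.827 (left) and 0.808 (right) for Upstate-type, 0.959 and 0.882 for lot 58206, and 0.833 and 0.814 for lot 638466. Set against both flanks, the locus at *T* = 6d was lower with the Upstate-type antibody (odds ratio 0.890, 0.834 to 0.951, Fisher's exact test, adjusted *P* = 8.51e-04 over 5 comparisons). It was higher relative to them with lot 58206 (1.10, 1.05 to 1.16, Fisher's exact test, adjusted *P* = 4.00e-04) and with lot 638466 (1.16, 1.10 to 1.21, adjusted *P* = 4.68e-09). At *T* = 2d the odds ratio was 1.01 (0.953 to 1.08, adjusted *P* = 0.689), and at *T* = 4d it was 1.07 (adjusted *P* = 0.0480). The direction relative to both flanks at *T* = 6d therefore depended on the antibody. The call of lot 58206 was lost against the left flank alone (1.06, Fisher's exact test, adjusted *P* = 0.0722) and against all deposited tags (1.01, adjusted *P* = 0.574). Against all deposited tags, the ratio was below 1 for *T* = 4d (0.958) and for lot 638466 (0.952, Fisher's exact test, adjusted *P* = 0.0359). The lot 638466 call was thus reversed with that reference. The *T* = 4d call was also lost with 500-kb flanks (1.04) and with the right flank alone (1.05).

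**Figure D2:**
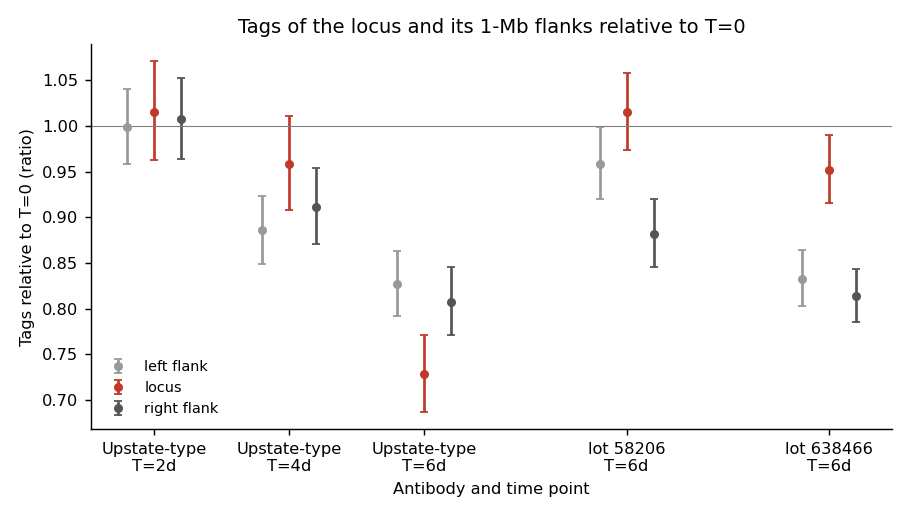
Tags at each later time point relative to T=0 of the same antibody (y axis, ratio) for the locus and its left and right 1-Mb flanks, by antibody and time point (x axis), with 95% binomial intervals. At T=6d the locus lies below both flanks with the Upstate-type antibody (0.728) and above both with lots 58206 (1.01) and 638466 (0.952).

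The last 50 kb were set apart from the first 950 kb after the Upstate-type values were seen, so the Upstate-type ratios of both are descriptions without a test. In the first 950 kb the Upstate-type antibody gave 2114, 2017, 1900 and 1576 tags at *T* = 0, 2d, 4d and 6d. The ratios to *T* = 0 were 0.954 (0.897 to 1.01), 0.899 (0.844 to 0.957) and 0.746 (0.698 to 0.796). In the last 50 kb the same antibody gave 650, 790, 749 and 437 tags, with ratios to *T* = 0 of 1.22 (1.09 to 1.35), 1.15 (1.04 to 1.28) and 0.672 (0.594 to 0.760). At *T* = 6d the intervals of both stretches overlapped. Lot 58206 gave 190 and 157 tags there (0.826, 0.665 to 1.03) and lot 638466 gave 328 and 241 (0.735, 0.620 to 0.870, Fisher's exact test *P* = 3.04e-04). In the first 950 kb the Abcam ratios were 1.02 and 0.967.

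Segment by segment, the Upstate-type antibody at *T* = 6d ranged from 0.507 times *T* = 0 in the first segment (272 to 138 tags) to 1.05 times in the eighth (228 to 239). The segments starting at 37050001, 37450001, 37550001 and 37650001 had ratios of 0.507, 0.551, 0.573 and 0.650. Their Upstate-type ratios were 0.728, 0.893, 0.784 and 1.01 at *T* = 2d, and 0.596, 0.778, 0.903 and 1.01 at *T* = 4d. The first of them was thus lower well before *T* = 6d. With lot 58206 these 4 segments had ratios of 1.01, 0.825, 0.852 and 0.817, and with lot 638466 0.836, 0.910, 0.905 and 1.06. The eighth segment, which holds the window at 37800001, had the highest lot 58206 ratio, 1.30 (501 to 652 tags), beside 1.01 with lot 638466.

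In the limma fit over the 3 antibodies, 0 of the 10 segments were called lower, where 1.81% of all segments of the genome were, and 0 were called higher, where 0.723% were (adjusted *P* below 0.05 and over 1.5-fold). At an unadjusted *P* below 0.05, 3 segments were lower and 0 higher, against 13.2% and 20.1% of all segments. The 3 were the segments starting at 37050001 (log2 change -0.40, adjusted *P* = 0.104), 37450001 (-0.42, adjusted *P* = 0.0600) and 37550001 (-0.38, adjusted *P* = 0.0696). Without the Upstate-type antibody 0 segments were lower at the unadjusted limit, and with either Abcam lot left out 3 or 4 were. The change differed between antibodies in 8 of the 10 segments (chi-square test of equal odds, adjusted over all segments), where 33.9% of all segments did.

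**Figure D3:**
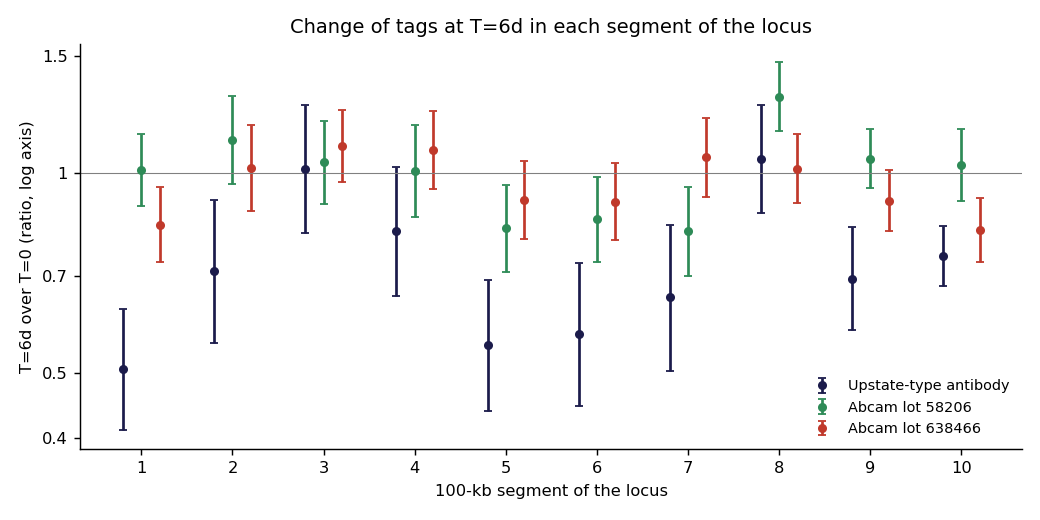
Ratio of tags at T=6d to T=0 (y axis, log axis) in each of the 10 segments of 100 kb of the locus (x axis), for each antibody, with 95% binomial intervals. The Upstate-type ratio is lowest in the first segment (0.507), and lot 58206 is highest in the eighth (1.30).

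Among single 5-kb windows, all that passed the test over the 3 antibodies were falls. In simulated data of this depth the fit recovered 12 of 100 falls and 61 of 100 rises of 3-fold. It thus missed most falls and fewer of the rises, so the counts do not show how few windows fell. The limma fit with the antibody as a block called 4 of the 183 tested windows lower at *T* = 6d (2.19%), where 1.36% of all 454962 tested windows were lower. It called 0 higher, where 0.0932% were. At an unadjusted *P* below 0.05, 23 windows of the locus were lower (12.6%, against 7.66% of all windows) and 0 were higher (against 6.04%). The median log2 change was -0.14 in the locus and 0.02 in the genome, and 120 of the 183 windows were below 0, against 47.9% of all windows. None of the 4 calls remained when any 1 of the 3 antibodies was left out, or without the block. Without the Upstate-type antibody the median was -0.05 in the locus and 0.01 in the genome, and 106 windows of the locus were below 0. At the unadjusted limit 14 were then lower and 4 higher. With either Abcam lot left out, the locus median was -0.18 or -0.19, and 125 windows were below 0. The shift of the locus was thus smaller without the Upstate-type pair.

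The first window, 37050001 to 37055000, had the largest fall on the log2 scale used. With a pseudocount of 0.25 the window at 37545001 fell further (-1.61 against -1.51). Without lot 58206 the windows at 37545001, 37395001 and 37715001 all fell further (-1.47, -1.36 and -1.19 against -1.05). In the first window the Upstate-type antibody gave 30, 23, 7 and 8 tags at *T* = 0, 2d, 4d and 6d. Lot 58206 gave 40 and 7, and lot 638466 gave 32 and 20. The decline was already present at *T* = 4d, and the log2 change at *T* = 6d was -1.36 (SE 0.27, limma adjusted *P* = 0.00748). Both 2-kb windows at its start held fewer tags at *T* = 6d with every antibody (14 to 5, 21 to 3 and 17 to 8 in 37050001 to 37052000).

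The other 3 windows lay deeper in the locus. The window 37545001 to 37550000 held 13, 7, 3 and 1 Upstate-type tags, 15 and 6 of lot 58206, and 17 and 5 of lot 638466 (log2 change -1.28, SE 0.31, limma adjusted *P* = 0.0329). It was the only one of the 4 in which the ratio of lot 638466 was below 0.5. All of its last 2 kb, 37548001 to 37550000, held 0 tags in every library, and the 2 kb before held 8, 2, 0 and 0, then 7 and 3, and 12 and 1.

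The window 37715001 to 37720000 held 19, 23, 9 and 2 Upstate-type tags, 34 and 10 of lot 58206, and 38 and 29 of lot 638466 (log2 change -1.27, SE 0.28, limma adjusted *P* = 0.0177). The window 37395001 to 37400000 held 22, 19, 7 and 2, then 28 and 12, and 38 and 25 (-1.24, SE 0.28, adjusted *P* = 0.0216). In both, *T* = 2d was near *T* = 0 and *T* = 6d was the lowest of the Upstate-type series, and the lot 638466 pair was the closest together.

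**Figure D4:**
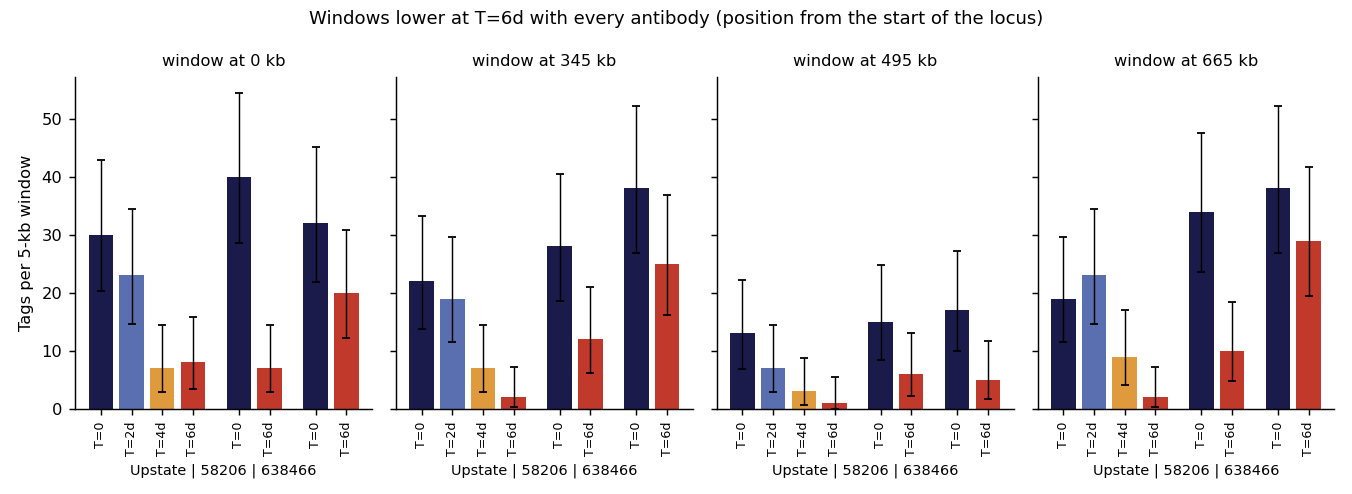
Tags (y axis) in the 4 windows of 5 kb that were lower at T=6d in the limma fit, in each of the 8 libraries (x axis, grouped by antibody), with 95% Poisson intervals; panel titles give the distance from the start of the locus. In each panel the T=6d bar is below T=0 for every antibody, with Upstate-type counts of 8, 2, 1 and 2 from left to right.

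Pairs of libraries of 1 antibody were compared window by window with Fisher's exact test, at *P* below 0.01 and over 1.5-fold. With the Upstate-type antibody, at *T* = 2d 0 of the 183 windows passed as lower and 3 as higher (0.871% and 0.877% of all windows). At *T* = 4d, 6 were lower and 1 higher (2.27% and 1.15%). At *T* = 6d, 13 were lower (7.10% of those tested, against 3.35% of all windows) and 0 higher (2.17%). The 13 windows were spread from the first window to the last, with 5 of them in the first 100 kb, and included the 4 called by limma.

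With lot 58206, *T* = 6d had 5 lower and 4 higher windows (2.15% and 1.92% of all windows), and with lot 638466, 2 were lower and 1 higher (2.11% and 1.18%). The 4 higher windows of lot 58206 started at 37300001, 37800001, 37925001 and 37980001, so 3 of them lay in the last 250 kb. Of its 5 lower windows, 37050001 and 37715001 were also among the limma calls.

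Windows that were rich before treatment were chosen with one kind of antibody and their change measured with the other. At 3 or more times the genome median at *T* = 0, both Abcam lots together chose 1 window of the locus, 37965001 to 37970000 (0.5% of its windows, against 0.230% of all). The Upstate-type antibody chose 15 (7.5%, against 9.36%), with 0 in common. The 15 windows held 367 and 348 tags of lot 58206 at *T* = 0 and *T* = 6d, a ratio of 0.948 (0.817 to 1.10). Windows chosen in the same way over the genome had 0.828. The window at 37800001 alone gave 69 of the 367 and 139 of the 348 tags, so this ratio rests in part on it. Of the 15 windows, 10 held fewer tags of lot 58206 at *T* = 6d. With lot 638466 they held 471 and 385 tags, a ratio of 0.817 (0.713 to 0.937), where the genome had 0.802. Both intervals included the genome value. The Abcam-chosen window held 26 and 24 Upstate-type tags at *T* = 0 and *T* = 6d, a ratio of 0.923 (0.507 to 1.67), where the genome had 0.558. At 2 times the median the Abcam lots chose 13 windows, with 244 and 225 Upstate-type tags, a ratio of 0.922 (0.766 to 1.11), where the genome had 0.624. That interval lay above the genome value.

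Rich windows also lay in runs, found after the values were seen. Runs of the Upstate-type antibody (3 or more neighbouring windows at 3 times the median at *T* = 0) lay at both edges and crossed them. The left one, 37040001 to 37055000, held 96, 77, 39 and 25 Upstate-type tags, a description, since the *T* = 0 library chose it. Lot 58206, which did not choose it, gave 95 and 29 tags there (0.305, 0.194 to 0.467), and lot 638466 gave 84 and 70 (0.833, 0.598 to 1.16). The right one, 38000001 to 38090000, was 90 kb long and held 1172, 1433, 1317 and 765 Upstate-type tags. Lot 58206 gave 328 and 260 (0.793, 0.671 to 0.936) and lot 638466 gave 566 and 478 (0.845, 0.746 to 0.956). Windows chosen with the Upstate-type antibody over the genome had ratios of 0.828 and 0.802 with these lots. The right flank, which holds part of the run, had 0.882 and 0.814. The intervals of the run included these values, so no difference from them was shown. The first 950 kb of the locus had 1.02 and 0.967, above the intervals of the run.

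Runs of the pooled Abcam lots (1.5 times the median at *T* = 0) lay inside. The longest, 37875001 to 37930000, held 162, 167, 132 and 124 Upstate-type tags, a ratio of 0.765 (0.601 to 0.973) at *T* = 6d. Lot 58206 gave 479 and 569 tags (1.19) and lot 638466 gave 456 and 411 (0.901). In the run 37965001 to 37985000, the Upstate-type antibody gave 85, 72, 57 and 86 tags (1.01, 0.741 to 1.38 at *T* = 6d), while lot 58206 gave 181 and 254 (1.40, 1.16 to 1.71) and lot 638466 gave 201 and 139 (0.692, 0.553 to 0.863). Since the Abcam lots at *T* = 0 chose these runs, their own ratios are descriptions.

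Windows without tags were set beside the falls. The locus held 6 stretches of 2 to 20 kb with no tag in any library, 18 kb in all. In the 21 kb within 2 kb of them, the Upstate-type antibody gave 41, 31, 17 and 20 tags, lot 58206 53 and 21, and lot 638466 59 and 36. The ratios to *T* = 0 were 0.756, 0.415 and 0.488, then 0.396 and 0.610, where the rest of the locus had 1.02, 0.967 and 0.732, then 1.02 and 0.956. The gaps were set apart after the values were seen, so these ratios are descriptions without a test. At *T* = 6d the Upstate-type interval beside the gaps (0.271 to 0.852) included the ratio of the rest. With lot 58206, 20 of the 53 tags at *T* = 0 and 2 of the 21 at *T* = 6d lay beside 1 gap, 37142001 to 37144000. Over the genome the same stretches had ratios of 0.820, 0.678 and 0.636, then 0.775 and 0.881. Of the 22 tested windows next to a window left out for few tags, 2 were called lower by limma (9.09%), and of the other 161, 2 were (1.24%), against 2.61% and 1.23% over the genome. The part of the gaps in these falls was not tested.

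**Figure D5:**
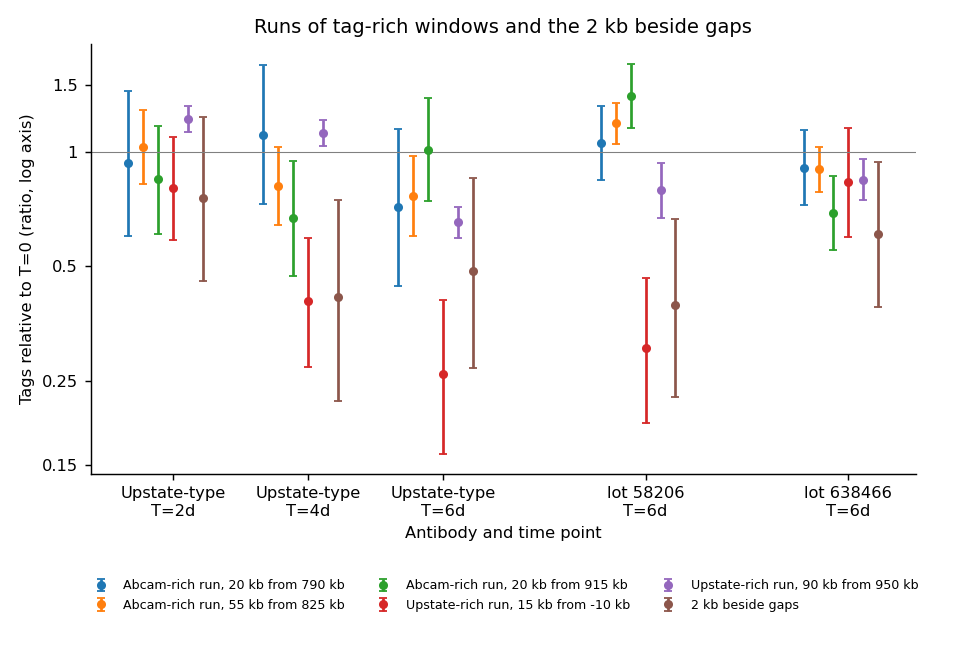
Tags relative to T=0 (y axis, ratio on a log axis) in the runs of rich windows and in the stretches beside gaps, by antibody and time point (x axis), with 95% binomial intervals; the legend gives the length and the distance from the start of the locus. Ratios of the antibody that chose a run rest on the T=0 values used to choose it. With lot 58206, which chose neither edge run, the left run is at 0.305 and the right run at 0.793.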

How the data were processed

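Per the labels and the study's supplement, the authors kept tags that mapped once with at most 1 mismatch, set libraries of the same antibody to an equal tag number, and deposited mm9 intervals that are all 300 bp long. The deposited files hold positions only, and no counts or other values, and no position was repeated in a library. The aligner is not given in the sources used here. Depth was 6887819, 8503927 and 12194174 tags per library. No per-sample column was left aside (0).

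Tags were counted by midpoint in Python 3.11.15 (scipy 1.17.1, pandas 2.3.3, numpy 2.4.6). *T* = 6d and *T* = 0 were compared with limma 3.58.1 in R 4.3.3 (lmFit, then eBayes with trend). Values were log2(tags per 1000000 + 0.5) in windows averaging at least 0.5 times the median, with the antibody as a block and Benjamini-Hochberg adjustment. A fold change on this scale understates that of windows with few tags. The replicate number is that of the antibody and pairs the libraries, since both libraries of an antibody deviated together from the time-point means (r = 0.689, 0.540 and 0.435 across windows). It is not a biological replicate. Pairs of libraries were compared with two-sided Fisher's exact tests. The limma steps were checked on simulated data. Alternatives were other window sizes, pseudocounts, filters, scalings, flanks and thresholds, no block, and each antibody left out.

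The windows and tests were chosen with earlier results of these data known. The regions named were the 10 segments, the 10 windows with the highest level, and up to 8 falls and 4 rises past the limma threshold and in the same direction with every antibody. The gaps, the runs and the division at 950 kb were added after the values were seen. Figures were drawn with matplotlib 3.10.9. Input libraries, control cells and gene or exon positions in mm9 were not analysed here.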

Additional observations from a re-analysis of the deposited data

Results flagged for a closer look

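The change from *T* = 0 to *T* = 6d differed between the 3 antibodies, by a chi-square test of equal odds, in the locus as a whole (*P* = 8.48e-20) and in 8 of its 10 segments of 100 kb, where 33.9% of all segments of the genome differed. The adjusted *P* was 2.62e-06 for the segment starting at 37050001 (ratios of 0.507, 1.01 and 0.836 with the Upstate-type antibody, lot 58206 and lot 638466) and 0.0261 for that at 37150001. It was 0.00344 at 37450001, 0.0168 at 37550001 and 0.00564 at 37650001, where the Upstate-type ratio was the lowest of the 3. It was 0.0296 at 37750001, where lot 58206 was highest (1.30), 0.00163 at 37850001 and 0.00294 at 37950001. The test compares libraries, and its cause was not tested.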

How the results depend on the processing

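Of 125 values of the comparisons recomputed under alternatives, 91 kept their direction and side of the threshold or stayed within 1.5 times the count. Of the rest, 27 moved, 4 were weaker and 3 reversed. Many of the 91 say little about stability. Some are counts of 0 that stayed at 0, as for all limma segment calls and the limma rises in 5-kb windows. The Upstate-type falls at *T* = 2d and rises at *T* = 6d also stayed at 0. Dropping the most tag-rich windows changed none of the odds ratios against the flanks. For the locus against its flanks, 500-kb flanks gave an odds ratio of 0.982 at *T* = 2d and 1.04 at *T* = 4d, the right flank alone gave 1.05 at *T* = 4d, and the left flank alone 1.06 for lot 58206. All deposited tags as the reference gave 0.958 at *T* = 4d, 1.01 for lot 58206 and 0.952 for lot 638466. The *T* = 4d and lot 58206 calls were lost under these alternatives. The lot 638466 call reversed against all deposited tags (Fisher's exact test, adjusted *P* = 0.0359). The limma count of 4 lower windows was 0 with a filter at 2 times the median, 1 with no filter, 0 with 2-kb windows and 0 without the replicate block, and ranged from 0 to 0 when each antibody was left out. The 4 windows were lower with every antibody, so the direction of their change could hardly differ under the alternatives. Of 36 alternative values for them, 16 kept the call and 20 lost it. Their log2 changes ranged from -1.76 to -0.75 and their limma adjusted *P* from 0.00450 to 0.741. Fisher's exact test with an adjusted *P* below 0.05 left 0 of 3 higher windows at *T* = 2d, 2 of 6 lower and 0 of 1 higher at *T* = 4d, 6 of 13 lower at *T* = 6d, 3 of 5 lower and 2 of 4 higher with lot 58206, and 0 of 2 lower and 0 of 1 higher with lot 638466. A 2-fold limit left 0 higher at *T* = 2d and 2 higher with lot 58206. Windows of 2 kb gave 1 higher at *T* = 2d, 3 lower and 2 higher at *T* = 4d, and 5 higher with lot 638466. Windows of 10 kb gave 1 higher at *T* = 2d, 0 higher at *T* = 4d, and 1 lower and 2 higher with lot 638466. Scaling to background windows gave 5 lower with lot 638466. Windows at 5 times the median in the Upstate-type library had a ratio of 1.10 with lot 58206, and included the window at 37800001 (69 and 139 tags). The Abcam lots chose no window of the locus at that limit. The cause of these differences was not tested. Depth limits single windows, which held a median of 8 to 25 tags per library.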
